A study of Bos taurus with 28 samples.

Results

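The estradiol by progesterone interaction was measured in liver as the difference between what both hormones did together and the sum of what each did alone. It was computed for 9155 genes, each represented by the probe set of highest mean signal, on all 28 arrays of the series. The labels give every array as liver mRNA of a dry, ovariectomized Holstein cow after 14 d, hybridized to a bovine oligonucleotide array, although the markers of 1 array went against liver. The E2P4T cows carried both an estradiol ear implant and vaginal progesterone devices, the E2T cows the implant only, the P4T cows the progesterone devices only, and the control (CO) cows neither, with 7 arrays in each group. The labels of P4T and the study's methods differ on the route of progesterone, and the vaginal route of the methods is used here. Age is not given in the sources used here. The methods describe a Latin square, in which the same cows passed through the treatments. The labels do not name the cow or the period of an array, so the arrays were fitted as separate samples, and p-values measure the spread between arrays.

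Estradiol acts through estrogen receptors and progesterone through progesterone receptors, which are transcription factors switched on by their hormone. Membrane proteins bind both hormones as well. In many reproductive tissues progesterone is known to oppose the action of estradiol, in part by lowering estrogen receptors. The liver clears both steroids and responds to estrogens with changes in its secreted proteins and lipids. Levels below are log2 of the signal. The interaction is E2P4T minus E2T minus P4T plus CO on that scale. A positive interaction means that E2P4T lay above the level obtained by adding the separate differences of E2T and P4T to CO, and a negative one that it lay below.

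Of the 28 arrays, 2 stood apart from the rest. On the library labelled E2P4T replicate 5, 21 of 22 hepatocyte markers had their lowest signal of all arrays and 11 of 12 kidney nephron markers their highest. The kidney cadherin CDH16 read 14.42 there and 3.95 to 8.75 on the other 27 arrays. The apolipoprotein APOB of liver lipoproteins read 5.0 there and 14.93 to 16.11 elsewhere, and albumin (ALB) read 12.06 against 16.57 to 18.16. The mean of the hepatocyte markers was 10.14 on that array and 15.18 to 15.77 on the other 27, P4T replicate 4 included. P4T replicate 4 had a median log2 signal of 8.78 and E2P4T replicate 5 one of 9.0, whereas the other 26 arrays lay between 7.48 and 8.33. The hybridisation control probe sets averaged 18.6 on E2P4T replicate 5 and 17.67 on P4T replicate 4, above the other arrays at 13.41 to 16.65. Results are therefore given for the 28 arrays and for the 26 arrays without these 2.

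**Figure D1:**
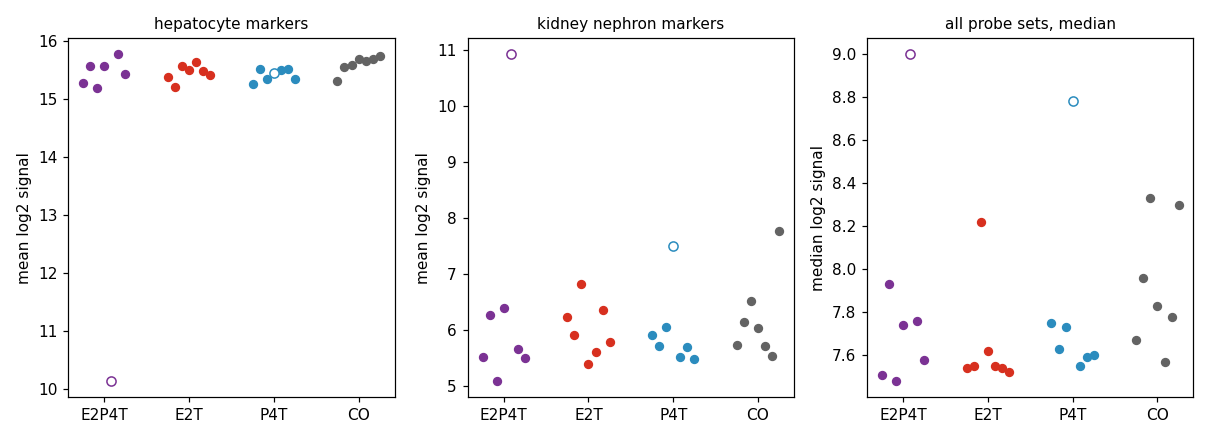
Mean log2 signal of 22 hepatocyte markers (left) and 12 kidney nephron markers (middle), and the median log2 signal of all probe sets (right), for each array in E2P4T, E2T, P4T and CO. Open circles are E2P4T replicate 5, which lies at 10.14 for hepatocyte and 10.92 for nephron markers, and P4T replicate 4.

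No gene was shown to depart from additivity once p-values were adjusted. With limma on 28 arrays, 0 of 24016 probe sets had an adjusted p under 0.05 (0.0%), and the lowest adjusted p was 0.999. At an unadjusted p under 0.05, 730 probe sets (3.04%) were higher than additive and 142 (0.591%) lower. Together these 872 were 3.63% of all, where an even spread of p-values gives 5%. Without the 2 arrays, 0 probe sets again passed (0.0%), with a lowest adjusted p of 0.0917, while 874 (3.64%) were higher and 231 (0.962%) lower at the unadjusted threshold. That lowest value belonged to a probe set of GRWD1, a ribosome assembly gene, with a mean log2 signal of 4.89 and an interaction of 5.06 (SE 0.91). The other GRWD1 probe sets had smaller interactions of the same sign on 26 arrays. The one with the highest signal had 0.56 (SE 0.26, unadjusted p = 0.038), and the last, at a mean signal of 4.18, had 2.44 (SE 1.16, unadjusted p = 0.044). Among the 9155 genes, 206 (2.25%) were higher and 52 (0.568%) lower than additive on 28 arrays, against 229 (2.5%) and 111 (1.21%) on 26 arrays. The 95% interval of an interaction had a median half-width of 1.41 over all probe sets and of 0.83 over the 50% with the higher signals.

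The interaction followed the signal level of a gene. In genes with a mean log2 signal under 6, the median difference from CO on 26 arrays was -0.62 in E2P4T, -0.58 in E2T and -0.64 in P4T. Each treatment stood below CO by about the same amount, and the median interaction was 0.64 over these 1348 genes. The median interaction was 0.27 for signals of 6 to 8, 0.07 for 8 to 10, -0.04 for 10 to 12 and -0.08 above 12. Of the 206 genes higher than additive on 28 arrays, 68 lay under a signal of 6 and 75 between 6 and 8. The median signal of the CO arrays moved with this pattern, with a mean of 7.67 in E2P4T, 7.65 in E2T, 7.64 in P4T and 7.92 in CO on 26 arrays. After quantile normalization, which gives every array the same distribution of signals, the median interaction of genes under 6 was 0.19 on 26 arrays, and the other levels lay between -0.07 and -0.03. The split of the unadjusted calls changed with it, to 413 higher and 345 lower on 28 arrays with quantile normalization and 467 higher and 373 lower with median centring. Over all probe sets the median interaction was 0.15 as measured, -0.02 with quantile normalization and -0.18 with median centring.

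**Figure D2:**
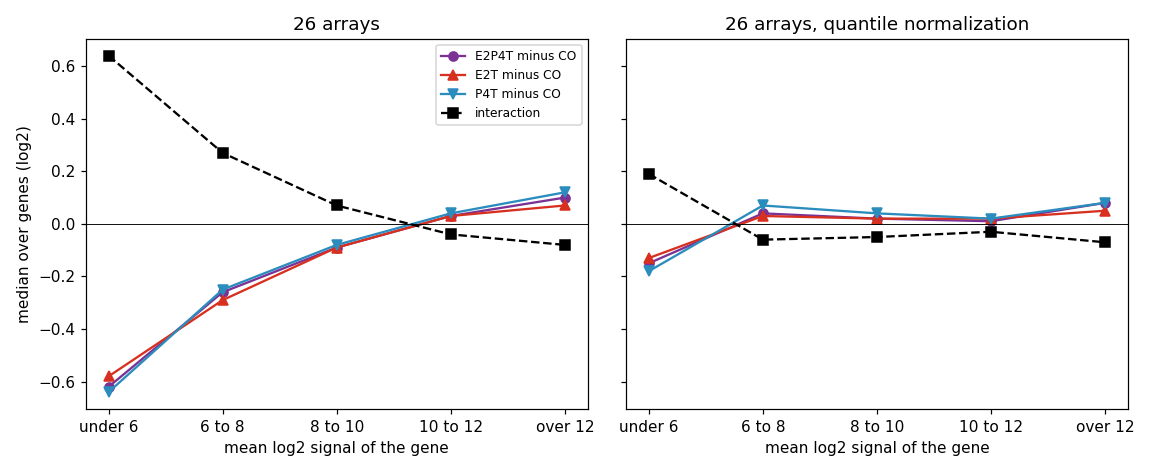
Median log2 difference from CO of E2P4T, E2T and P4T (colored lines) and median interaction (dashed black line) over genes grouped by mean log2 signal, on 26 arrays as deposited (left) and after quantile normalization (right). The median interaction of the genes under a signal of 6 is 0.64 on the left and 0.19 on the right.

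Genes were named where both fits gave the same sign at an unadjusted p under 0.05 and the mean signal lay in the upper 50% of the probe sets, at 7.62 or more. There were 62 such genes of 6491, with 43 higher and 19 lower than additive. In all 43, on 28 arrays, E2T and P4T both averaged below CO and E2P4T stood nearer to CO than the sum of the separate differences, or past CO. The median difference from CO in these 43 genes was -0.27 in E2P4T, -0.71 in E2T and -0.61 in P4T on 28 arrays, and -0.43 in E2P4T, -0.71 in E2T and -0.65 in P4T on 26. In 18 of the other 19, E2T and P4T both averaged above CO. The medians of the 19 were 0.25 in E2P4T, 0.55 in E2T and 0.46 in P4T on 28 arrays, and 0.29 in E2P4T, 0.55 in E2T and 0.53 in P4T on 26. Thus all 62 were less than additive. In 50 of them on 28 arrays E2P4T lay between CO and both separate treatments, against 1677 of all 9155 genes. The interaction and the sum of the separate differences share the E2T, P4T and CO arrays with opposite signs, and 80.0% of all 9155 genes were less than additive on 28 arrays. Neither share among the 62 is therefore a result about them. Separate differences and interaction all had the same sign in 0 of the 258 genes at an unadjusted p under 0.05 on 28 arrays. On 26 arrays this held for at most 1 of 340. Over all 9155 genes it held for 994 on 28 arrays and 682 on 26. HSD17B1, whose separate differences had opposite signs, is not in these counts, which share arrays in the same way. All 62 kept their sign with quantile normalization, median centring and 24 arrays. An unadjusted p under 0.05 was kept by 24 of the 43 and 14 of the 19 with quantile normalization of 28 arrays, and by 9 of the 43 and 14 of the 19 with median centring.

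**Figure D3:**
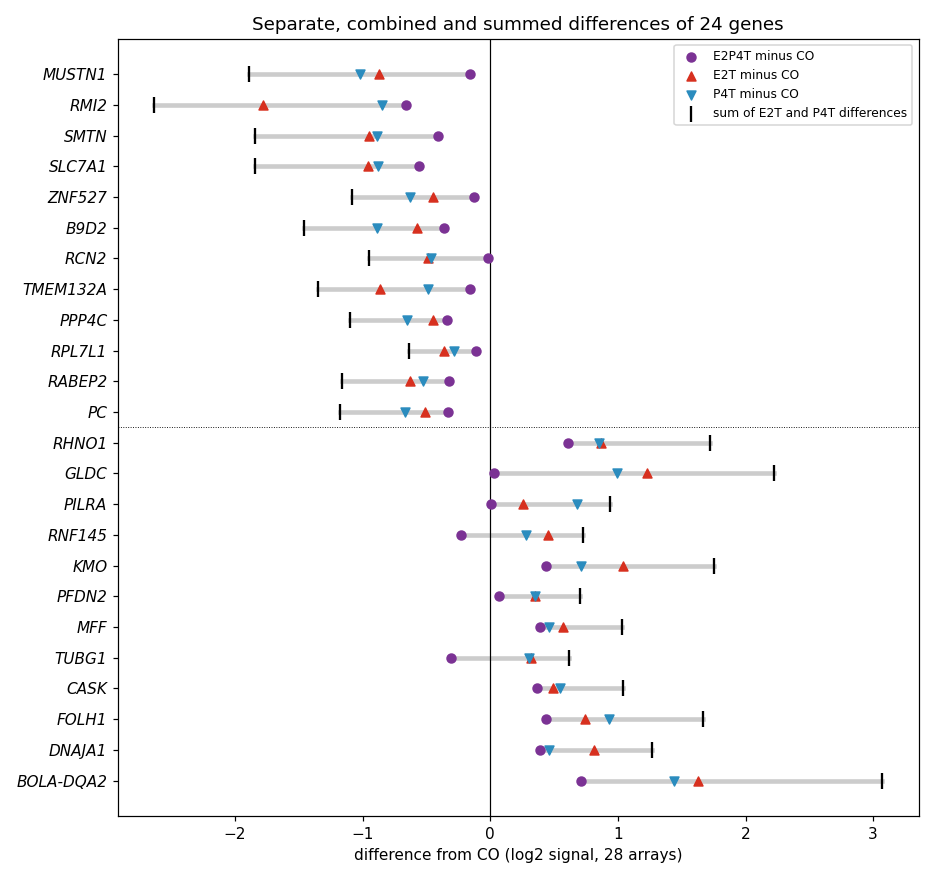
Log2 difference from CO in E2P4T, E2T and P4T, and the sum of the E2T and P4T differences (black bars), for the 12 genes with the highest and the 12 with the lowest moderated t of the interaction, on 28 arrays. The grey line from the black bar to the E2P4T point is the interaction, from 1.97 in RMI2 to -2.36 in BOLA-DQA2.

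RHNO1, which encodes a partner of the RAD9-RAD1-HUS1 clamp in the DNA damage response, had the lowest p of the genes below additivity. Its lowest, median and highest log2 signals were 8.65, 9.28 and 9.81 in E2P4T, 9.33, 9.43 and 10.14 in E2T, 9.04, 9.56 and 10.27 in P4T, and 8.1, 8.5 and 9.37 in CO. Each treatment group lay mostly above CO, although the ranges overlapped. E2P4T stood 0.61 above CO, E2T 0.87 and P4T 0.85 (SE 0.24 each). The sum of the separate differences placed E2P4T at 10.4, and it averaged 9.29 ± 0.44 (SD, n = 7). The interaction was -1.11 (SE 0.34, unadjusted p = 0.0025) on 28 arrays and -1.17 (SE 0.34, unadjusted p = 0.0016) on 26. It had an unadjusted p under 0.05 in all 42 alternative fits. E2P4T averaged 0.26 below E2T and 0.24 below P4T, within 2 SE of 0.

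Amino acid breakdown held 2 of the 12 genes with the lowest moderated t. GLDC encodes the glycine decarboxylase of the glycine cleavage system, and KMO the kynurenine 3-monooxygenase of tryptophan breakdown. GLDC read 4.75, 8.92 and 10.28 in E2P4T (lowest, median, highest), 8.54, 9.7 and 10.99 in E2T, 8.31, 9.27 and 10.87 in P4T, and 7.63, 8.15 and 9.59 in CO. The lowest value belonged to E2P4T replicate 5 and the highest of P4T to P4T replicate 4. The interaction of GLDC was -2.19 (SE 0.77) on 28 arrays and -1.33 (SE 0.55) on 26, so that these 2 arrays carried much of its size. KMO read 10.14, 11.07 and 12.27 in E2P4T, 11.35, 11.95 and 12.55 in E2T, 10.53, 11.54 and 12.26 in P4T, and 9.25, 11.09 and 11.76 in CO. Its interaction was -1.31 (SE 0.54) on 28 arrays and -1.29 (SE 0.51) on 26, and E2T stood furthest above CO, by 1.04. Of 29 measured genes of the urea cycle and amino acid catabolism, these 2 were the ones below additivity at an unadjusted p under 0.05 in both fits, and 0 were above. Over all genes, 0.568% were below on 28 arrays and 1.21% on 26. The median interaction of the 29 was -0.25 on 28 arrays and 0.01 on 26, beside 0.07 and 0.06 over all genes.

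Pyruvate carboxylase (PC) and the alpha subunit of propionyl-CoA carboxylase (PCCA) feed carbon into glucose synthesis, from pyruvate and from propionate, the main glucose precursor of ruminants. Their interactions had opposite signs. PC read 11.3, 11.92 and 12.9 in E2P4T, 11.5, 11.77 and 12.56 in E2T, 11.05, 11.53 and 12.42 in P4T, and 11.84, 12.35 and 12.79 in CO. It averaged below CO in each treatment group, by 0.33 in E2P4T, 0.51 in E2T and 0.67 in P4T (SE 0.24 each), and the ranges overlapped. Its interaction was 0.85 (SE 0.34) on 28 arrays and 0.68 (SE 0.31) on 26. PCCA read 11.14, 13.11 and 13.26 in E2P4T, 12.4, 13.44 and 13.69 in E2T, 12.15, 13.22 and 13.76 in P4T, and 12.19, 12.55 and 13.54 in CO. The lowest E2P4T value was again replicate 5. The interaction of PCCA was -0.88 (SE 0.42, unadjusted p = 0.043) on 28 arrays, -0.62 (unadjusted p = 0.084) without that array, and -0.78 (SE 0.32, unadjusted p = 0.022) on 26 arrays. It held an unadjusted p under 0.05 in 14 of 28 fits that left out 1 array. PCK1, the phosphoenolpyruvate carboxykinase that commits oxaloacetate to glucose, had an interaction of -0.72 (unadjusted p = 0.056) on 28 arrays and -0.59 (unadjusted p = 0.045) on 26. The list of gluconeogenesis, propionate use and glycolysis held 23 measured genes, and PC and PCCA were the 2 past the threshold in both fits, PC above and PCCA below additivity. Over all genes, 2.25% were above and 0.568% below on 28 arrays, against 2.5% and 1.21% on 26. A pair of further PC probe sets with low signals had interactions of 0.19 and 0.87 on 28 arrays, neither past the threshold.

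**Figure D4:**
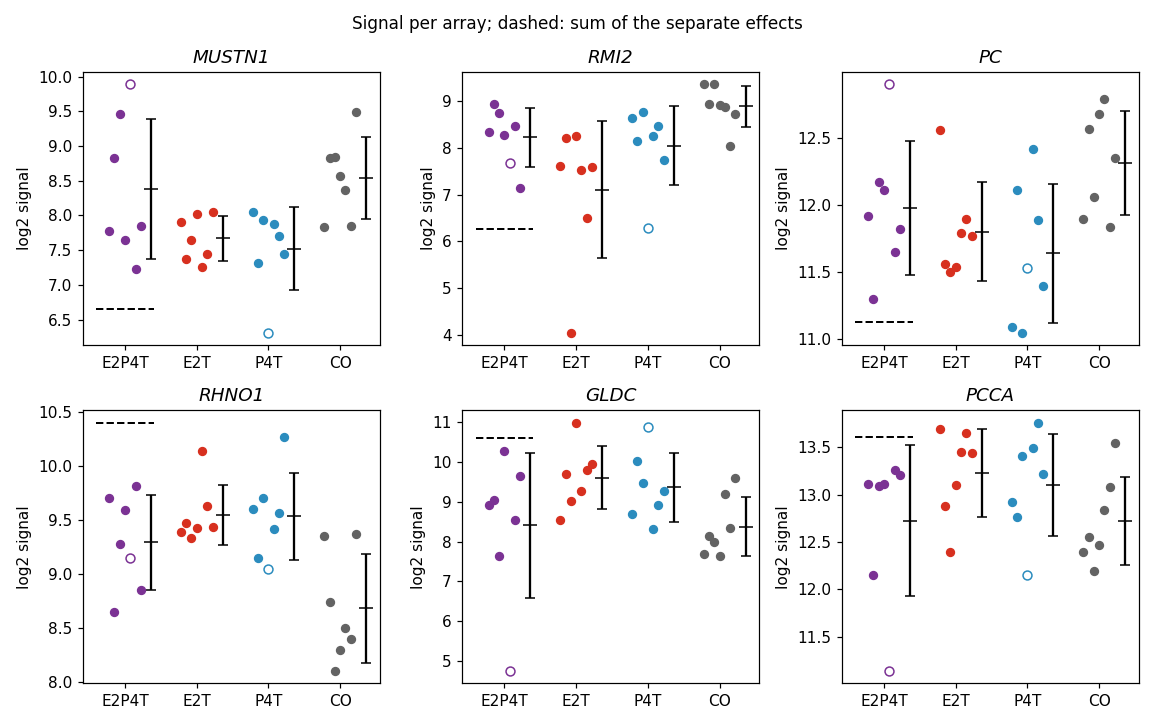
Log2 signal of 6 genes on each array, with the mean and SD (n = 7) beside each group, in the order E2P4T, E2T, P4T and CO. The dashed line over E2P4T is the additive level, 10.4 for RHNO1, and open circles are E2P4T replicate 5 and P4T replicate 4.

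Among genes above additivity, MUSTN1, which encodes a small nuclear protein named from the musculoskeletal system, had the highest moderated t. It read 7.23, 7.85 and 9.89 in E2P4T, 7.26, 7.65 and 8.05 in E2T, 6.31, 7.7 and 8.05 in P4T, and 7.83, 8.57 and 9.49 in CO. The E2P4T arrays spread over the ranges of both the treated groups and CO. The interaction was 1.74 (SE 0.52, unadjusted p = 0.0023) on 28 arrays and 1.28 (SE 0.46, unadjusted p = 0.0084) on 26. The other probe sets of MUSTN1 had lower signals and interactions of 1.11 (SE 1.13) and 0.29 (SE 1.02). RMI2, a subunit of the complex that dissolves DNA crossover intermediates, read 7.13, 8.33 and 8.94 in E2P4T, 4.04, 7.59 and 8.26 in E2T, 6.28, 8.26 and 8.76 in P4T, and 8.04, 8.92 and 9.36 in CO. A single E2T array, replicate 3, gave the value of 4.04. RMI2 had an interaction of 1.97 (SE 0.67) on 28 arrays and 1.76 (SE 0.64) on 26.

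The cationic amino acid transporter SLC7A1 read 6.96, 7.91 and 8.53 in E2P4T, 6.18, 7.59 and 8.21 in E2T, 7.04, 7.83 and 7.97 in P4T, and 7.54, 8.48 and 9.17 in CO. The E2P4T median lay between those of the separate treatments and that of CO. Its interaction was 1.27 (SE 0.46) on 28 arrays and 1.19 (SE 0.46) on 26. The smooth muscle cytoskeletal gene SMTN had an interaction of 1.44 on 28 arrays and 0.96 on 26, and its lowest P4T value, 6.0, belonged to replicate 4. The other 8 of the 12 genes with the highest moderated t had interactions of 0.54 to 1.20 on 28 arrays. They were ZNF527, the ciliary gene B9D2, the endoplasmic reticulum calcium binder RCN2, TMEM132A, the phosphatase subunit PPP4C, RPL7L1, RABEP2 and PC. With median centring, MUSTN1 and TMEM132A were the 2 of the 12 that kept an unadjusted p under 0.05, and with quantile normalization of 28 arrays B9D2 and SLC7A1 lost it. None changed sign under any alternative, but the mean over its probe sets gave RCN2 an interaction of 0.0.

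RNF145, a ubiquitin ligase of the endoplasmic reticulum membrane, stood 0.23 below CO in E2P4T, 0.45 above in E2T and 0.28 above in P4T on 28 arrays. E2P4T replicate 5 read 8.76 and the other E2P4T arrays 10.69 to 11.27. On 26 arrays RNF145 stood 0.08 above CO in E2P4T, 0.45 above in E2T and 0.35 above in P4T, so the side of CO on which E2P4T lay depended on that array. Its interaction was -0.96 (SE 0.39) on 28 arrays and -0.73 (SE 0.28) on 26, with an unadjusted p under 0.05 in all 42 alternatives. TUBG1, the gamma-tubulin that nucleates microtubules, had E2P4T on the other side of CO from both separate treatments in both fits. It stood 0.31 below CO in E2P4T, 0.32 above in E2T and 0.30 above in P4T on 28 arrays, with an interaction of -0.93 (SE 0.40). Without E2P4T replicate 2 its interaction was -0.69 (unadjusted p = 0.062), and without E2T replicate 3 it was -0.80 (unadjusted p = 0.055). The inhibitory immune receptor PILRA (-0.94), the folding genes PFDN2 (-0.63) and DNAJA1 (-0.88), the mitochondrial fission factor MFF (-0.64), the scaffold CASK (-0.66), the peptidase FOLH1 (-1.22) and BOLA-DQA2 were the rest of the 12 genes with the lowest moderated t. The other probe set of PILRA had an interaction of 0.42 (SE 1.11) on 28 arrays, and that of MFF had -0.26 (SE 0.46). Averaged over their probe sets, PILRA had -0.26 (unadjusted p = 0.65) and MFF -0.45 (unadjusted p = 0.13). DNAJA1 held the threshold in 18 of 28 fits that left out 1 array, and its interaction was -0.70 (unadjusted p = 0.07) without CO replicate 3. CASK lost the threshold without CO replicate 7 (-0.56), E2P4T replicate 6 (-0.60) or P4T replicate 4 (-0.56). FOLH1 lost it without CO replicate 6 (-0.92), E2T replicate 7 (-1.06), E2P4T replicate 4 (-1.10) or E2P4T replicate 7 (-1.12).

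BOLA-DQA2, a class II histocompatibility gene of a family of closely alike copies that the array may not separate, had the most negative estimate of the 19 genes at -2.36 (SE 1.08). It read 7.46, 11.07 and 13.08 in E2P4T, 11.33, 11.87 and 12.69 in E2T, 10.04, 12.08 and 12.62 in P4T, and 6.42, 11.38 and 12.72 in CO. The low values were 1 array in E2P4T and 2 arrays in CO. The estimate was -1.76 (unadjusted p = 0.084) without E2P4T replicate 7, -1.71 (unadjusted p = 0.086) without CO replicate 5 and -1.82 (unadjusted p = 0.083) without CO replicate 6, and it held the threshold in 21 of 28 such fits. A further probe set of the gene had an interaction of -2.95 (SE 1.04) and the last one 0.95 (SE 0.87).

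HSD17B1 was set apart from these genes by its pattern. It encodes the 17-beta-hydroxysteroid dehydrogenase that reduces estrone to estradiol. HSD17B1 read 4.76, 5.81 and 6.61 in E2P4T, 6.13, 6.8 and 7.94 in E2T, 6.86, 7.47 and 8.19 in P4T, and 6.33, 6.92 and 8.16 in CO. No E2P4T array reached the lowest P4T array, and the E2P4T range overlapped those of E2T and CO only at its top. E2P4T stood 1.38 below CO, E2T 0.16 below and P4T 0.25 above (SE 0.41 each). The interaction was -1.47 (SE 0.58, unadjusted p = 0.016) on 28 arrays and -1.32 (SE 0.58, unadjusted p = 0.028) on 26, with an unadjusted p under 0.05 in all 40 alternatives that included it. Its mean signal of 6.86 lay below the upper 50% of the probe sets. Of 165 genes at any signal that passed both fits, 3 had E2P4T farther from CO than either separate treatment on 28 arrays, against 38.3% of all genes. On 26 arrays HSD17B1 was the 1 gene of the 165 that did, against 35.2% of all genes. The 165 were chosen on an interaction that shares the E2T, P4T and CO arrays with the separate differences, with opposite signs. Neither share is therefore a result about them. Besides HSD17B1, the genes counted among the 3 on 28 arrays were ATG4A, a protease of autophagy, and BEX5, both chosen after their values were seen. ATG4A stood 0.66 above CO in E2P4T, 0.71 below in E2T and 0.57 below in P4T on 26 arrays, with an interaction of 2.39 (SE 0.82) on 28 arrays and 1.95 on 26. BEX5 stood 0.51 above CO in E2P4T, 0.52 below in E2T and 0.97 below in P4T on 26 arrays, with an interaction of 2.40 (SE 0.94) on 28 arrays and 2.0 on 26. E2P4T replicate 5 read 10.39 for BEX5, and the other E2P4T arrays 6.64 to 7.44.

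Of the 22 measured genes of steroid and drug metabolism, HSD17B1 was the one past the threshold in both fits, and SULT1E1, the estrogen sulfotransferase, passed on 28 arrays alone. The shares of all genes below additivity were 0.568% on 28 arrays and 1.21% on 26. The median interaction of these 22 genes was -0.50 on 28 arrays and -0.09 on 26.

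The receptors themselves had no interaction past the threshold. The estrogen receptor gene ESR1 read 2.79, 5.95 and 8.59 in E2P4T, 2.14, 3.25 and 5.02 in E2T, 3.12, 4.52 and 6.95 in P4T, and 3.09, 5.29 and 6.06 in CO. Its low and scattered signals gave an interaction of 1.71 with a 95% interval of -0.60 to 4.01. The progesterone receptor gene PGR had an interaction of 1.09 (-0.72 to 2.91) and likewise low signals. The membrane progesterone binder PGRMC1 was strongly expressed, with group means of 13.56 in E2P4T, 13.9 in E2T, 13.67 in P4T and 13.53 in CO. Its interaction was -0.49 (-1.73 to 0.76) on 28 arrays, -0.06 without E2P4T replicate 5 and -0.32 on 26 arrays, where E2P4T averaged 13.98. A further PGRMC1 probe set, with a mean signal of 8.22, gave 0.94 (SE 0.58) on 28 arrays and 0.39 (SE 0.45) on 26. The glucocorticoid receptor gene NR3C1, which can bind progesterone, had the narrowest interval of the 4, -0.75 to 0.39 around -0.18. The androgen receptor gene was not among the named probe sets. Of 6 measured steroid receptors and progesterone binders, 13 estrogen receptor targets and 11 progesterone and glucocorticoid receptor targets, 0 passed the threshold on 28 arrays. Over all genes, 2.25% passed above and 0.568% below additivity on 28 arrays. With so few genes, a count of 0 does not set these lists apart. On 26 arrays PCK1 passed below additivity among the progesterone and glucocorticoid receptor targets, where 1.21% of all genes did.

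Genes of the mitochondrial respiratory chain differed between the fits. Complex I, which passes electrons from NADH to ubiquinone, had 37 measured subunit and assembly genes. On 28 arrays their median interaction was -0.05, and 0 passed the threshold. On 26 arrays the median was -0.26, 34 of 37 were negative and 5 passed the threshold below additivity, where 44.6% of all genes were negative and 1.21% passed. The 5 were NDUFA1, NDUFA2, NDUFA6, NDUFB6 and NDUFC1, with interactions of -0.50 to -0.76. NDUFC1 read 11.02, 11.89 and 11.99 in E2P4T, 11.15, 12 and 12.32 in E2T, 9.82, 11.84 and 12.08 in P4T, and 10.71, 11.28 and 11.74 in CO. The value of 9.82 was P4T replicate 4. Its interaction was -0.42 (SE 0.36) on 28 arrays and -0.73 (SE 0.27, unadjusted p = 0.013) on 26.

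The median difference from CO of the complex I genes on 26 arrays was 0.17 in E2P4T, 0.21 in E2T and 0.27 in P4T, beside -0.07 in each over all genes. Each treatment stood above CO, and both hormones together by no more than either alone. Complexes II to IV and ATP synthase, with 36 measured genes, had the same pattern, with 0.22 in E2P4T, 0.24 in E2T and 0.32 in P4T. Their median interaction was 0.04 on 28 arrays and -0.27 on 26. On 26 arrays 32 of 36 were negative and 3 passed the threshold below additivity (COX6A1, ATP5PD and ATP5MC3), where 44.6% of all genes were negative and 1.21% passed. With quantile normalization the median of these 36 genes was 0.17 on 28 arrays, with 23 positive. It was -0.21 on 26 arrays, with 30 negative. A further COX6A1 probe set, with a mean signal of 3.14, passed above additivity in both fits. Its interaction was 2.95 (SE 1.26) on 28 arrays and 3.26 (SE 1.27) on 26. The mean over the 37 complex I genes was 12.57 on E2P4T replicate 5, above the other E2P4T arrays at 11.79 to 12.35, and 10.83 on P4T replicate 4, below the other P4T arrays at 12.07 to 12.44. It was also low on E2T replicate 3, at 11.56, and on CO replicate 3, at 11.42. Those 2 arrays had the next highest hybridisation controls. Leaving out these 4 arrays, a choice made after seeing the data, gave complex I a median of -0.27 with 33 of 37 negative and 7 past the threshold, where 2.28% of all genes passed below additivity. With quantile normalization of 26 arrays the median was -0.23, with 32 of 37 negative and 4 past the threshold, where 1.86% passed. With quantile normalization of all 28 arrays the median was 0.06. Without E2P4T replicate 5 alone the median was -0.15, and without P4T replicate 4 alone it was -0.24. Its size, and its sign after quantile normalization, thus depended on these 2 arrays, and the part of array quality in it was not tested. The complex I genes had a median signal of 11.78, and all genes with signals of 10 to 12 had a median interaction of -0.04 on 26 arrays. Of these 2336 genes, 44.6% were positive and 45 passed the threshold below additivity on 26 arrays. Of the 1267 genes above 12, 36.1% were positive and 23 passed below it.

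**Figure D5:**
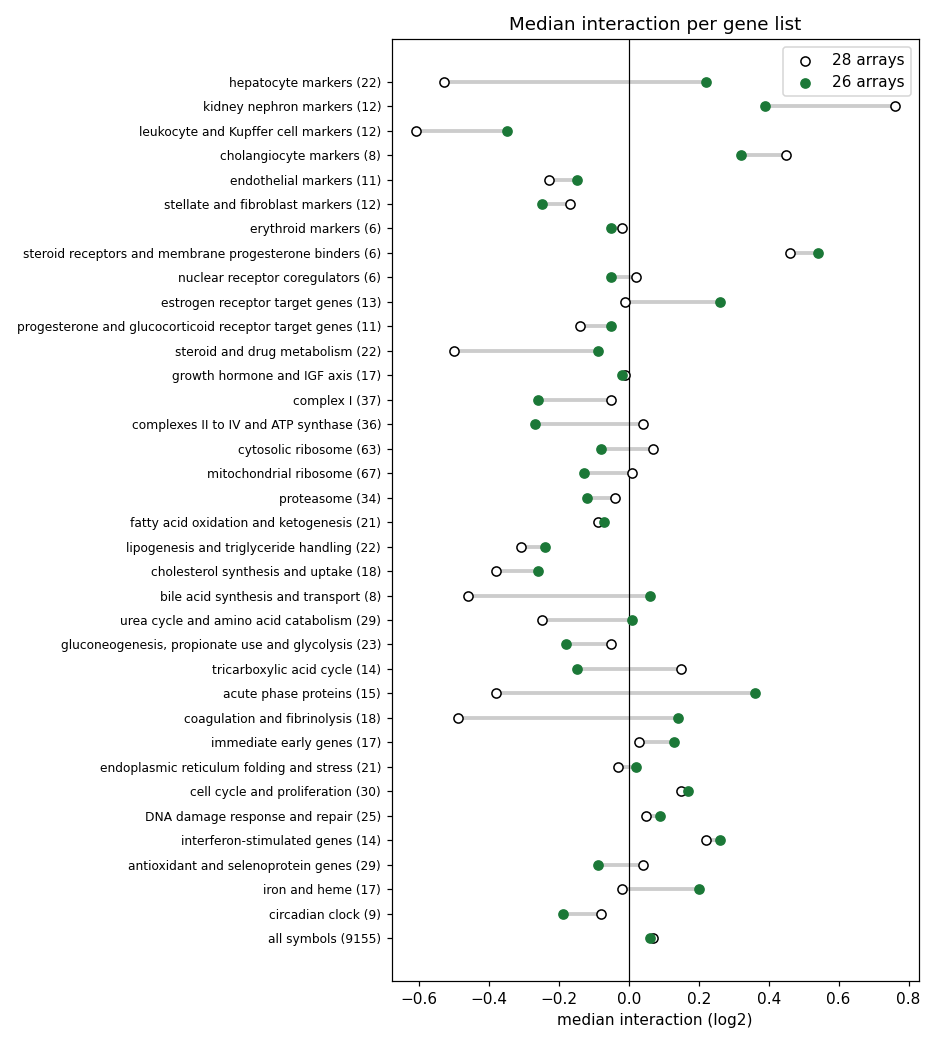
Median interaction of each gene list, with its number of measured genes, on 28 arrays (open circles) and on 26 arrays (filled circles), and over all 9155 genes in the last row. Complex I moves from -0.05 on 28 arrays to -0.26 on 26, and the hepatocyte markers from -0.53 to 0.22.

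On 26 arrays other mitochondrial and protein synthesis lists lay nearer to 0 than the respiratory chain lists. On 28 arrays several did not, since complex I stood at -0.05 and complexes II to IV and ATP synthase at 0.04. The median interaction of 67 mitochondrial ribosome genes was 0.01 on 28 arrays and -0.13 on 26, that of 63 cytosolic ribosome genes 0.07 and -0.08, that of 34 proteasome genes -0.04 and -0.12, and that of 14 tricarboxylic acid cycle genes 0.15 and -0.15. Fatty acid oxidation and ketogenesis, with 21 genes, gave -0.09 and -0.07 with 0 past the threshold in either fit.

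Lipid synthesis genes had negative medians in both fits. The 22 genes of lipogenesis and triglyceride handling had a median of -0.31 on 28 arrays and -0.24 on 26, and the 18 genes of cholesterol synthesis and uptake -0.38 and -0.26. ELOVL5, which elongates polyunsaturated fatty acids, read 11.94, 13.89 and 14.12 in E2P4T, 13.23, 14.41 and 15.02 in E2T, 11.85, 14.07 and 14.17 in P4T, and 12.77, 13.69 and 13.99 in CO. The lowest values of E2P4T and P4T belonged to E2P4T replicate 5 and P4T replicate 4. E2P4T stood 0.03 below CO, E2T 0.76 above and P4T 0.14 above on 28 arrays. On 26 arrays E2P4T stood 0.24 above, E2T 0.76 above and P4T 0.45 above. Its interaction was -0.93 (SE 0.48, unadjusted p = 0.064) on 28 arrays and -0.97 (SE 0.32, unadjusted p = 0.0047) on 26. The lipid droplet gene CIDEC (-1.08) and the lanosterol synthase gene LSS (-0.81) passed below additivity on 26 arrays only, and ACACA, the acetyl-CoA carboxylase of fatty acid synthesis, passed above it (1.10).

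Lists of hepatocyte genes changed sign between the fits. The median interaction of 22 hepatocyte markers was -0.53 on 28 arrays and 0.22 on 26, that of 15 acute phase genes -0.38 and 0.36, that of 18 coagulation and fibrinolysis genes -0.49 and 0.14, and that of 8 bile acid genes -0.46 and 0.06. With quantile normalization of 26 arrays these medians were -0.06, 0.10, 0.03 and -0.00. SAA3 (1.25) and ITIH3 (0.69), both acute phase genes, passed above additivity on 26 arrays only. On 28 arrays SAA3 had an interaction of 0.47 and ITIH3 one of -0.11. In coagulation, the tissue factor gene F3 (2.25 on 28 arrays, 2.09 on 26) and the thrombomodulin gene THBD (1.04 in both) passed above additivity in both fits, 2 of 18 genes where 2.25% of all genes passed on 28 arrays and 2.5% on 26. Each held the threshold in 18 of 28 fits that left out 1 array.

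Of 30 measured cell cycle genes, 4 passed above additivity on 28 arrays, where 2.25% of all genes did, and 3 on 26, where 2.5% did. None of the 30 passed below it, and their median interaction was 0.15 on 28 arrays and 0.17 on 26. The mitotic kinase gene PLK1 (1.13 on 28 arrays, 1.20 on 26) and the spindle checkpoint gene BUB1B (1.51 and 1.97) passed in both fits. PLK1 held the threshold in 8 of 28 fits that left out 1 array and BUB1B in 14. With quantile normalization of 28 arrays, 0 of the 30 passed. In the growth hormone and IGF axis, with 17 genes and medians of -0.01 and -0.02, the receptor gene IGF2R passed below additivity in both fits, at -0.81 in each, where 0.568% and 1.21% of all genes did, and in 10 of 28 fits that left out 1 array.

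Markers of the other liver cells were listed beside these results, since fewer cells of a type and less RNA per cell cannot be told apart in tissue. The median interaction on 26 arrays was -0.35 for 12 leukocyte and Kupffer cell markers, 0.32 for 8 cholangiocyte markers, -0.15 for 11 endothelial markers, -0.25 for 12 stellate cell and fibroblast markers and -0.05 for 6 erythroid markers. Their mean levels overlapped between all groups on 26 arrays, for example 10.83 to 11.46 in E2P4T, 10.35 to 11.46 in E2T, 11.03 to 11.49 in P4T and 10.66 to 11.9 in CO for the mean of the leukocyte markers. The endothelial receptor gene KDR had an interaction of 3.58 (SE 1.24) on 28 arrays and 3.21 (SE 1.22) on 26 at very low signals, with a median of 3.38 in E2T and 5.36 in CO, and its other probe set gave 0.31 (SE 1.4). Most endothelial markers went the other way, with 8 of the 11 negative and 3 positive in each fit. LYVE1, at a mean signal of 11.6, passed below additivity on 26 arrays only (-0.83, SE 0.37). Its other probe set gave -0.26 (SE 0.31) on 26 arrays. The part of cell composition in the interactions was not tested.

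MIOX, the myo-inositol oxygenase of the kidney tubule, was among the 43 genes above additivity and read 13.17 on E2P4T replicate 5, against 4.49 to 9.18 on the other arrays. Its interaction was 2.05 (SE 0.96, unadjusted p = 0.039) on 28 arrays and 1.54 (SE 0.73, unadjusted p = 0.042) on 26.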

How the data were processed

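The authors deposited 1 table of signal intensity values per probe set for 28 bovine arrays, computed with MAS 5.0 in GCOS and scaled to a common trimmed mean per array. Detection calls and raw images were not used here. Log2 intensity of 24016 probe sets other than controls (112 controls left out) was fitted with limma 3.58.1 in R 4.3.3, with 1 mean per group of 7 arrays, moderated variances with a trend, and Benjamini-Hochberg adjustment over all probe sets. Symbols came from the array's annotation: 13292 probe sets had 1 symbol, 86 several and 10638 none, and 13263 of the first matched the RefSeq gene table. The fit was tested on simulated data.

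Named genes had the same sign and an unadjusted p under 0.05 on 28 and on 26 arrays and a mean log2 signal of 7.62 or more: the 12 highest and 12 lowest by moderated t, up to 3 members per direction of each of 35 gene lists at any signal, and the steroid receptors. Any other gene was named after its values were seen. The comparison, the genes and the lists were chosen with earlier results of these data known. The number of arrays limits the precision. Alternatives were quantile normalization, median centring, filters on signal, log2 of the signal plus 50, a fixed or random replicate block, other variance estimates, array weights, averaging all probe sets of a gene, and leaving out arrays. Quantile normalization of 26 arrays and leaving out 4 arrays were added after seeing the data.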

Additional observations from a re-analysis of the deposited data

Results flagged for a closer look

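In 160 sets of 7 arrays of a group, covering the named genes and 4 measures of array quality, 30 highest or lowest arrays lay farther from the rest of their group than Dixon's criterion allows. Chance alone is known to flag about 1 set in 20. No cause was tested.

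E2P4T replicate 5 stood apart in all 4 array measures. It had a median log2 signal of 9.0, a hybridisation control mean of 18.6, a hepatocyte marker mean of 10.14 and a nephron marker mean of 10.92. The same array was the highest of E2P4T for ZNF527 (9.76), RABEP2 (10.72), CASK (10.29) and PGR (8.81). It was the lowest for PILRA (8.49), RNF145 (8.76) and PGRMC1 (11.03).

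P4T replicate 4 had a median log2 signal of 8.78, a hybridisation control mean of 17.67 and a nephron marker mean of 7.5. It was the lowest P4T array for MUSTN1 (6.31), RMI2 (6.28), SMTN (6.0), BOLA-DQA2 (10.04) and PGRMC1 (12.11). E2T replicate 3 had a median log2 signal of 8.22 and was the lowest E2T array for RMI2 (4.04) and PGRMC1 (12.67). CO replicate 3 had a hybridisation control mean of 16.65.

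The remaining single arrays belonged to 1 gene each. E2P4T replicate 3 was the lowest for RCN2 (9.15) and E2P4T replicate 2 for TUBG1 (6.32). E2T replicate 1 was the highest for PC (12.56), E2T replicate 5 for RHNO1 (10.14) and E2T replicate 7 for CASK (9.87). P4T replicate 2 was the highest for RPL7L1 (12.52), and CO replicate 1 the lowest for SMTN (8.33).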

How the results depend on the processing

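No setting gave a probe set with an adjusted p under 0.05, the count being 0 in every fit that was run. At an unadjusted p under 0.05, the count higher than additive (730) was 421 in the 75% of probe sets ranked highest by maximum signal, 144 in the upper 50% by mean signal, 413 with quantile normalization, 467 with median centring, 1224 with array weights, 433 with quantile normalization of 26 arrays, and 1204 without E2P4T replicate 5, P4T replicate 4, E2T replicate 3 and CO replicate 3. The count lower than additive (142) was 231 without E2P4T replicate 5 and P4T replicate 4, 77 in the upper 50% by mean signal, 345 with quantile normalization, 373 with median centring, 541 with array weights, 461 with quantile normalization of 26 arrays, and 384 without the 4 arrays. Both filters test fewer probe sets, and the cause of the other changes was not tested. Leaving out 1 array gave 477 (without E2P4T replicate 5) to 1286 (without P4T replicate 4) higher and 95 to 201 lower. With the replicate number as a block, 759 were higher and 186 lower. Arrays of the same number correlated with a median of 0.0245 over 42 pairs, and arrays of other numbers with -0.00154 over 252. The correlation was over 0.1 in 11 of the 42 pairs and in 24 of the 252. Whether the numbers follow the cow cannot be told from these values, and the numbers are not taken to pair the samples.

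Among genes named by the rule, none past the unadjusted threshold in both fits changed sign under any alternative. ITIH3, past the threshold on 26 arrays only, had an interaction of -0.11 on 28 arrays and 0.69 on 26. Of the 24 genes with the highest and lowest moderated t, 24 kept an unadjusted p under 0.05 on 26 arrays and with the replicate block, 22 with quantile normalization, 13 with median centring and 16 when all probe sets of a gene were averaged. With median centring, 15 of 35 list medians moved by more than the spread between arrays.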
